A study of Mus musculus with 33 samples.

Results

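The genes described here are 10 transcription-related genes of the AP-1 and immediate early class, Fos, Fosb, Fosl1, Fosl2, Jun, Junb, Jund, Atf3, Egr1 and Ier3, out of 32285 gene identifiers in the deposited count tables. They were chosen by name, as the rows whose mouse Ensembl identifier carries a listed symbol, with no threshold on their levels, although the list itself was drawn up with earlier results of these data known. All 10 were found in the tables and all 10 passed the filter on low counts, which 13606 genes passed. The study profiled 33 libraries of mouse colon epithelial organoids by QuantSeq, a 3′ mRNA sequencing method that counts tags near the end of each transcript. All lines carry the engineered alleles abbreviated AKP, which include Apc fl/fl and Trp53 fl/fl. Control libraries (n = 6) came from non-induced AKP organoids without treatment, in which the alleles had not been recombined. Organoid AKP libraries (n = 6) came from the same kind of organoids after OptoCre activation, in which blue light and doxycycline switch on Cre, and were passaged as organoids. Mini-colon AKP lines #i to #v (n = 3 each) were also made by OptoCre activation and were re-derived as organoids from tumour-bearing mini-colons, which are tube-shaped colon tissues grown on a chip. The study calls line #v crypt-enriched and line #i lumen-enriched, and picked this pair by a score computed from these libraries. In vivo AKP libraries (n = 6) came from organoids grown from colon tumours of mice given tamoxifen, in which Cdx2-creERT2, active in the colon epithelium, recombined the same alleles. Before collection, organoids were kept in basal medium without added growth factors. Per the study's methods, Cre was activated at 8 to 10 weeks of age and tumours grew for 6 weeks. The study describes the libraries as separate cultures, but the labels tie none to a particular culture, mouse or clone. P-values therefore measure the spread between libraries within lines, pooled over the lines fitted.

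AP-1 is a family of dimers of basic leucine zipper proteins. FOS proteins need a JUN partner to bind DNA, whereas JUN proteins can also pair with each other, and the dimers bind the TPA response element (TRE) in promoters and enhancers. Immediate early genes such as Fos, Fosb, Jun, Egr1 and Ier3 are transcribed within minutes of a growth factor or stress signal without new protein synthesis, largely through ERK and serum response factor (SRF), and their messages are short-lived. Fosl1, which encodes FRA-1, responds later and more lastingly to ERK signalling and is known for its high level in invasive carcinoma cells. In the intestinal epithelium, AP-1 acts downstream of growth factor receptors and of stress kinases.

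The sequences upstream of Fos and Fosb hold a match to the CArG box, the DNA element that SRF binds. In the 500 bases before the annotated start, searched on both strands in GRCm39 with GENCODE M39 starts, the SRF CArG box was present in 2 of the 9 members searched and in 2.78% of 21260 promoters of protein-coding genes. The cyclic AMP response element (CRE) TGACGTCA was present in 1 member and in 1.97% of promoters. The EGR site, GCGNGGGCG with G or T at N, was present in 2 members and in 3.51% of promoters. The TRE, TGACTCA or TGAGTCA (each the other's reverse complement), was present in none of the 9 and in 7.59% of promoters. None of the motifs overlapped another in these windows. Each stretch below is printed because it carries such a match in a member whose level is followed through the lines. The letters in capitals mark the match.
Fos, SRF CArG box, chr12:85520335-85520384, plus strand: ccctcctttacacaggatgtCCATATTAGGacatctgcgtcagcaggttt
Fosb, SRF CArG box, chr7:19044213-19044262, minus strand: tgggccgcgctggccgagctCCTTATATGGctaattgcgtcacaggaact
Fosb, EGR site, chr7:19043992-19044040, minus strand: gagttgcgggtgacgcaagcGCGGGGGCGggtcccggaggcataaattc
Jund, CRE, chr8:71151365-71151412, plus strand: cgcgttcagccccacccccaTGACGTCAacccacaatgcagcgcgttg
Jund, EGR site, chr8:71151504-71151552, plus strand: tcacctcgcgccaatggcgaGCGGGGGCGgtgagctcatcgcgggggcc
The Fos box ended 294 bases and the Fosb box 257 bases before the start.

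Library totals ran from about 2438670 to 8256530 counts, and the members' raw counts from 15 for Fosl1 in a control library to 3753 for Egr1 in a mini-colon AKP #v library. Levels are given as TMM-scaled CPM, counts relative to the scaled library total. The library codes carry a letter, E in 18 libraries and F in 15, whose meaning is not given in the sources used here. The 6 libraries of control, of organoid AKP and of in vivo AKP split evenly, 3 to a letter, whereas lines #i, #ii and #iii have only letter E and lines #iv and #v only letter F. Because several members differed strongly between letters, each level below is given by letter. Epithelial markers were present in every line, with a summed level of 10141 to 11340.3 CPM in control and 2884 to 3557 CPM in the 27 AKP libraries. Krt20, a keratin of differentiated colonocytes, stood at 553 to 771 CPM in control and at 0 to 7.10 CPM in the AKP libraries. Of the 9 epithelial markers, 8 were lower in organoid AKP than in control and none was higher. These markers moved with the comparison of organoid AKP with control, and their part in the members' changes was not tested. Fewer cells of a type and less RNA per cell cannot be told apart in bulk libraries. Of 8 fibroblast and muscle markers only Vim passed the filter, at 4.09 to 21.7 CPM in organoid AKP, 39.9 to 117 CPM in #v and 37.4 to 275 CPM in in vivo AKP, and the immune and endothelial lists likewise had 1 gene each, Cd68 and Pecam1. Trp53 tags were 14.4 to 19.1 CPM in control, 1.07 to 3.78 CPM in organoid AKP and 19.2 to 34.2 CPM in in vivo AKP. Among the mini-colon lines, #iii held 7.37 to 11.7 CPM and the others 1.97 to 3.93 CPM. A 3′ tag outside the deleted part of the gene checks nothing about the deletion. Where these tags lie was not settled from the sources used here. Why in vivo AKP held more of them than organoid AKP was not tested.

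**Figure D1:**
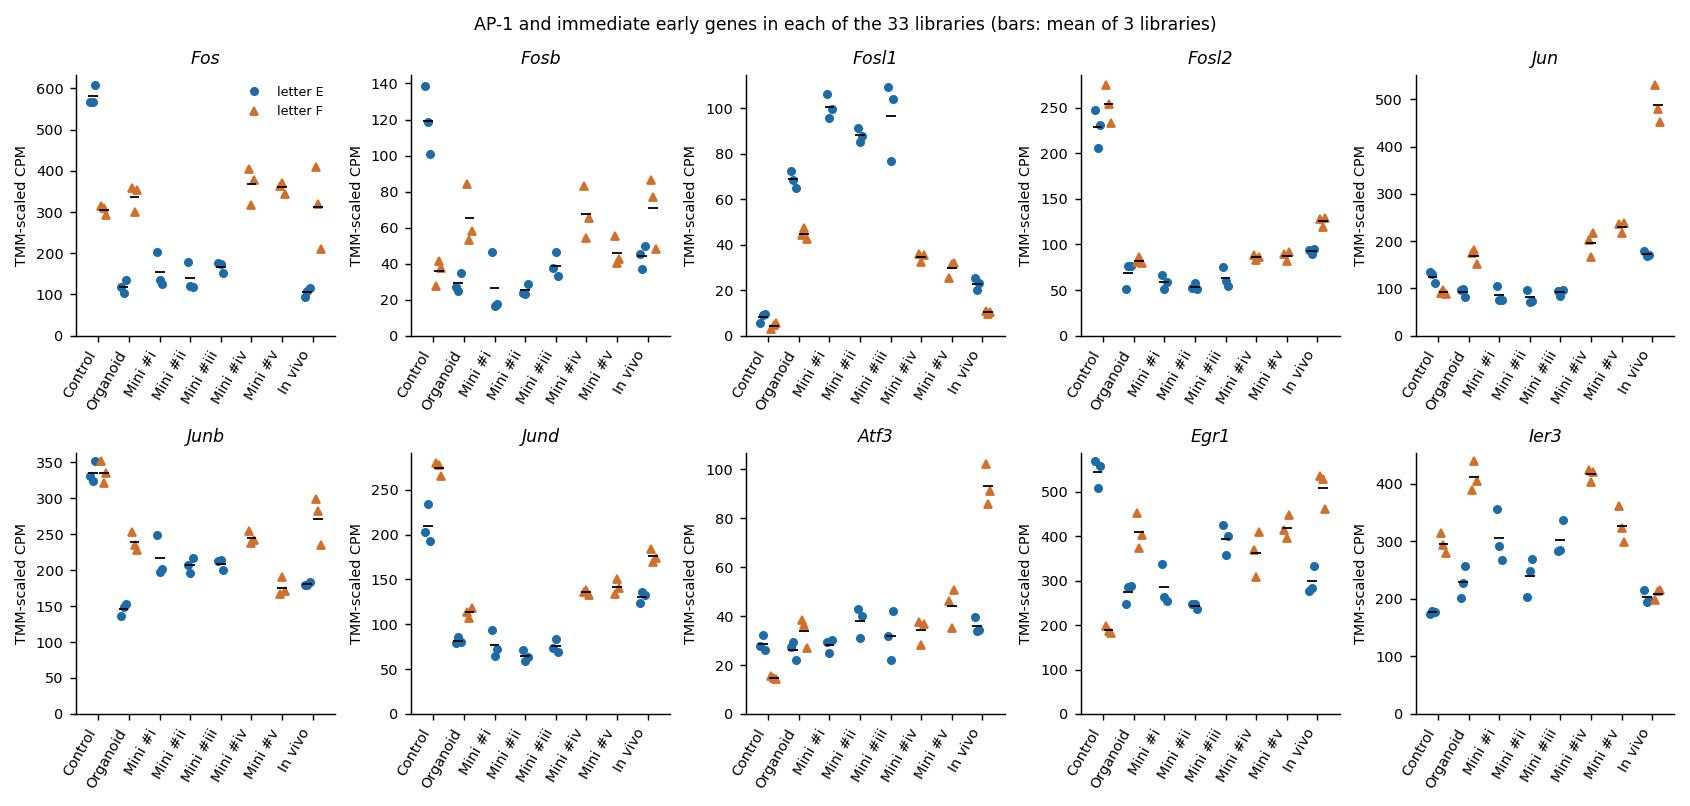
Each panel plots 1 gene, with the 8 lines on the x axis and TMM-scaled CPM on a linear y axis from 0; circles are letter E libraries, triangles letter F libraries and bars the mean of 3 libraries. Fosl1 is lowest in control in both letters, Fosl2, Junb and Jund are highest there, and Fos, Fosb and Egr1 change order between the letters.

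Fosl1 (ENSMUSG00000024912, chr19:5497575-5505974, plus strand, 4 exons) had the largest fold change of the 10 members between organoid AKP and control. Control libraries gave 5.75, 9.10 and 9.47 CPM with letter E and 2.97, 4.58 and 5.75 CPM with letter F. Organoid AKP gave 72.5, 68.6 and 65.0 CPM and 44.1, 47.1 and 42.5 CPM, so that no AKP organoid library reached down to the control range. Across all 6 against 6 libraries the level was 9.60-fold higher in organoid AKP (log2 fold change 3.26 ± 0.24, adjusted p = 1.14e-13; ± is the SE here and below), and within letters it rose by 3.04 ± 0.18 (E) and 3.26 ± 0.16 (F) on the log2 scale. In vivo AKP lay between them, at 25.3, 19.99 and 23.0 CPM with letter E and 10.8, 9.60 and 10.3 CPM with letter F. It was 3.34-fold lower than organoid AKP (log2 fold change -1.74 ± 0.21, adjusted p = 3.87e-08), and all 6 in vivo libraries lay below all 6 organoid AKP libraries. Within each letter the in vivo libraries also lay above the control libraries without overlap. The letter E mini-colon lines were the highest of all, at 95.8 to 106 CPM in #i, 85.2 to 91.4 CPM in #ii and 76.6 to 109 CPM in #iii. The letter F lines #iv and #v held 32.6 to 36.0 CPM and 25.5 to 32.0 CPM, below the organoid AKP libraries of their letter.

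Fosl2 (ENSMUSG00000029135, chr5:32292707-32315186, plus strand), which encodes FRA-2, moved the opposite way. Control held 248, 206 and 231 CPM with letter E and 275, 254 and 233 CPM with letter F. Organoid AKP held 51.4, 76.7 and 76.6 CPM and 80.8, 86.6 and 79.6 CPM, with no overlap. The level was 3.19-fold lower in organoid AKP (log2 fold change -1.67 ± 0.11, adjusted p = 2.28e-15), and the letters gave -1.77 ± 0.12 and -1.68 ± 0.08, which did not differ in the test of the difference (adjusted p = 0.698). In vivo AKP, at 89.2 to 94.8 CPM with letter E and 119 to 129 CPM with letter F, exceeded all organoid AKP libraries (log2 fold change 0.53 ± 0.11, adjusted p = 2.58e-04). Every AKP library lay below every control library, since the 5 mini-colon lines ran from 51.5 to 91.9 CPM.

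Fos (ENSMUSG00000021250, chr12:85520658-85524047, plus strand) is the classic immediate early AP-1 subunit. With letter E it was highest in control, at 568, 566 and 608 CPM, against 117, 105 and 134 CPM in organoid AKP and 93.3, 109 and 117 CPM in in vivo AKP. With letter F these lines gave 314, 309 and 293 CPM, 357, 299 and 353 CPM and 409, 320.5 and 211 CPM, and the 3 sets overlapped. Fos was thus 4.98-fold lower in organoid AKP than in control with letter E (adjusted p = 9.70e-09) and did not pass the test with letter F (log2 fold change 0.08 ± 0.19, adjusted p = 0.707). The pooled value, -0.95 ± 0.34 (adjusted p = 0.0158), averages these unlike sets of libraries. In vivo and organoid AKP did not differ in Fos by the test, pooled or by letter (pooled log2 fold change -0.13 ± 0.34, adjusted p = 0.808). Mini-colon lines #i, #ii and #iii spanned 119 to 204 CPM, and #iv and #v spanned 318 to 405 CPM. Since no mini-colon line has both letters, line and letter cannot be told apart there.

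Fosb (ENSMUSG00000003545, chr7:19036621-19043976, minus strand), a close relative of Fos, was called in opposite directions by letter between organoid AKP and control. In the fits by letter, Fos was called with E only. Control libraries held 139, 119 and 101 CPM with letter E and 27.7, 41.4 and 37.8 CPM with letter F. Organoid AKP held 26.9, 25.0 and 35.1 CPM and 84.2, 53.0 and 58.0 CPM. The level in organoid AKP was therefore lower than control within letter E (log2 fold change -2.06 ± 0.30, adjusted p = 2.68e-05) and higher within letter F (log2 fold change 0.81 ± 0.27, adjusted p = 0.0186), without overlap in either. Pooled, Fosb did not pass the test (log2 fold change -0.65 ± 0.35, adjusted p = 0.0996). In vivo AKP held 45.2, 37.3 and 49.5 CPM with letter E, above all organoid AKP libraries of that letter. With letter F it held 86.4, 77.2 and 48.2 CPM, overlapping organoid AKP. It did not differ from organoid AKP by the test, pooled (adjusted p = 0.627) or by letter.

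Jun (ENSMUSG00000052684, chr4:94937271-94940459, minus strand, 1 exon), the partner that FOS proteins most often use, was highest in in vivo AKP within each letter. In vivo libraries held 179, 168 and 171 CPM with letter E and 529.6, 481 and 453 CPM with letter F, against 97.7, 98.5 and 82.8 CPM and 174, 180.3 and 152 CPM in organoid AKP. No in vivo library overlapped an organoid AKP library of the same letter. Jun rose 2.50-fold over all libraries (log2 fold change 1.32 ± 0.26, adjusted p = 1.52e-04), by 0.91 ± 0.12 within letter E and 1.55 ± 0.08 within letter F on the log2 scale. The rise was larger with letter F (difference 0.64 ± 0.15, adjusted p = 0.00134). Control held 134, 129.9 and 111 CPM and 89.8, 97.1 and 88.1 CPM, above organoid AKP with letter E and below it with letter F. The comparison of organoid AKP with control accordingly changed sign between letters, -0.46 ± 0.12 against 0.83 ± 0.08, and was not called when pooled (adjusted p = 0.319).

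Junb (ENSMUSG00000052837, chr8:85701113-85705359, minus strand, 1 exon) can restrain Jun in a dimer. Its control level was nearly the same in both letters, 331, 324 and 352 CPM and 351, 320.4 and 335 CPM. Every AKP library lay below every control library, from 135 to 298 CPM. Organoid AKP held 135, 149 and 153 CPM with letter E and 253, 235 and 228 CPM with letter F. It was 1.74-fold below control (log2 fold change -0.80 ± 0.13, adjusted p = 2.28e-06), and the drop was deeper with letter E (-1.23 ± 0.09) than with letter F (-0.55 ± 0.08; difference 0.71 ± 0.12, adjusted p = 2.58e-05). In vivo AKP passed the test against organoid AKP within each letter (0.32 ± 0.09 with E, 0.20 ± 0.08 with F) but not pooled (adjusted p = 0.195). It held 179, 179 and 183 CPM with letter E, above all organoid AKP libraries of that letter. With letter F it held 298, 282 and 235 CPM, overlapping organoid AKP.

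Jund (ENSMUSG00000071076, chr8:71151599-71153265, plus strand, 1 exon) is the JUN protein typical of resting cells. Control held 203, 234 and 193 CPM with letter E and 280.0, 277 and 265 CPM with letter F. Organoid AKP held 79.0, 85.8 and 80.1 CPM and 114, 107 and 119 CPM, 2.48-fold lower (log2 fold change -1.31 ± 0.12, adjusted p = 9.55e-12). Of the 3 JUN genes it was the steadiest across letters in this comparison, at -1.39 ± 0.11 and -1.33 ± 0.07. In vivo AKP, at 123 to 136 CPM and 169.6 to 184 CPM, lay between the other lines in each letter and above all organoid AKP libraries (log2 fold change 0.65 ± 0.12, adjusted p = 5.16e-05). Mini-colon lines #i to #iii ran from 59.2 to 93.9 CPM and #iv and #v from 133 to 151 CPM.

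Atf3 (ENSMUSG00000026628, chr1:190902493-190950241, minus strand), a stress-induced bZIP protein that pairs with JUN, stood out in the in vivo libraries of letter F. These held 102, 85.6 and 91.0 CPM, whereas the other 30 libraries ran from 14.1 to 50.7 CPM. In vivo libraries of letter E held 39.7, 33.8 and 34.4 CPM, against 27.6, 29.3 and 22.1 CPM in organoid AKP. In vivo AKP exceeded organoid AKP 2.11-fold over all libraries (log2 fold change 1.08 ± 0.25, adjusted p = 0.00128), by 0.48 ± 0.17 within letter E and 1.47 ± 0.12 within letter F (difference 0.997 ± 0.23, adjusted p = 0.00116). Against control, organoid AKP was called higher with letter F only (log2 fold change 1.15 ± 0.15, adjusted p = 4.85e-09), where control held 15.3, 14.8 and 14.1 CPM. The difference between letters was 1.34 ± 0.26 (adjusted p = 2.65e-04).

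Egr1 (ENSMUSG00000038418, on chromosome 18, plus strand) encodes a zinc finger factor induced by ERK and SRF. Control held 568, 508 and 558 CPM with letter E and 198, 187 and 182 CPM with letter F. Organoid AKP held 246, 286 and 288 CPM and 453, 374 and 402 CPM, so the order of the lines was reversed. Organoid AKP was 2.03-fold lower than control within letter E (adjusted p = 1.00e-12) and 2.09-fold higher within letter F (adjusted p = 2.03e-13). Pooled, the log2 fold change was -0.09 ± 0.25 (adjusted p = 0.761). In vivo AKP was above organoid AKP within letter F (log2 fold change 0.33 ± 0.08, adjusted p = 0.0013), at 536, 529.8 and 462 CPM. Within letter E it held 277, 285 and 333 CPM and did not pass the test (adjusted p = 0.292).

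Ier3 (ENSMUSG00000003541, chr17:36132568-36133815, plus strand, 2 exons) is an immediate early gene that acts in cell survival and is not a DNA-binding factor. Control held 173, 179.6 and 178 CPM with letter E and 314, 293 and 280.0 CPM with letter F. Organoid AKP held 202, 227 and 258 CPM and 389, 441 and 405 CPM, above control in each letter (0.34 ± 0.11 and 0.42 ± 0.07; pooled log2 fold change 0.44 ± 0.16, adjusted p = 0.0161). The pooled call was lost without organoid AKP replicate 5 or 6. Ier3 was the only member that did not pass the test between letters in in vivo AKP, which held 215, 195 and 199 CPM and 199, 214 and 216 CPM. In vivo AKP was lower than organoid AKP pooled (log2 fold change -0.64 ± 0.16, adjusted p = 0.0021) and within letter F (-0.96 ± 0.07), but not within letter E (log2 fold change -0.16 ± 0.11, adjusted p = 0.289).

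The comparison of organoid AKP with control asks how gene levels differ after the alleles are recombined in plain organoid culture. The study reports that healthy organoids did not grow in the basal medium used before collection. The part of growth in these differences was not tested. In organoid AKP against control, 2 of the 10 members were called higher (Fosl1, Ier3) and 4 lower (Fos, Fosl2, Junb, Jund) at an adjusted p under 0.05. Among all 13606 genes tested, 37.3% were called higher and 33.6% lower, so the members' share of calls did not stand above that of genes at large. The median log2 fold change was -0.37 over the 10 members and 0.06 over all genes. Within letter E, 2 members were higher and 7 lower (background 33.6% and 32%). Within letter F, 6 were higher and 3 lower (background 35% and 35.7%). Fosl1 and Ier3 were higher and Fosl2, Junb and Jund lower in both letters, while Fosb, Jun and Egr1 were called in opposite directions.

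In in vivo AKP against organoid AKP, 4 members were called higher (Fosl2, Jun, Jund, Atf3) and 2 lower (Fosl1, Ier3). Of all genes, 17.4% were called higher and 17% lower, and the median log2 fold change was 0.24 over the members. Within letter E, 5 were higher and 1 lower (background 14% and 13.3%). Within letter F, 6 were higher and 2 lower (background 25.1% and 24.1%). Fosl1 fell and Fosl2, Jun, Junb, Jund and Atf3 rose in both letters. This comparison and the preceding one share the organoid AKP libraries.

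**Figure D2:**
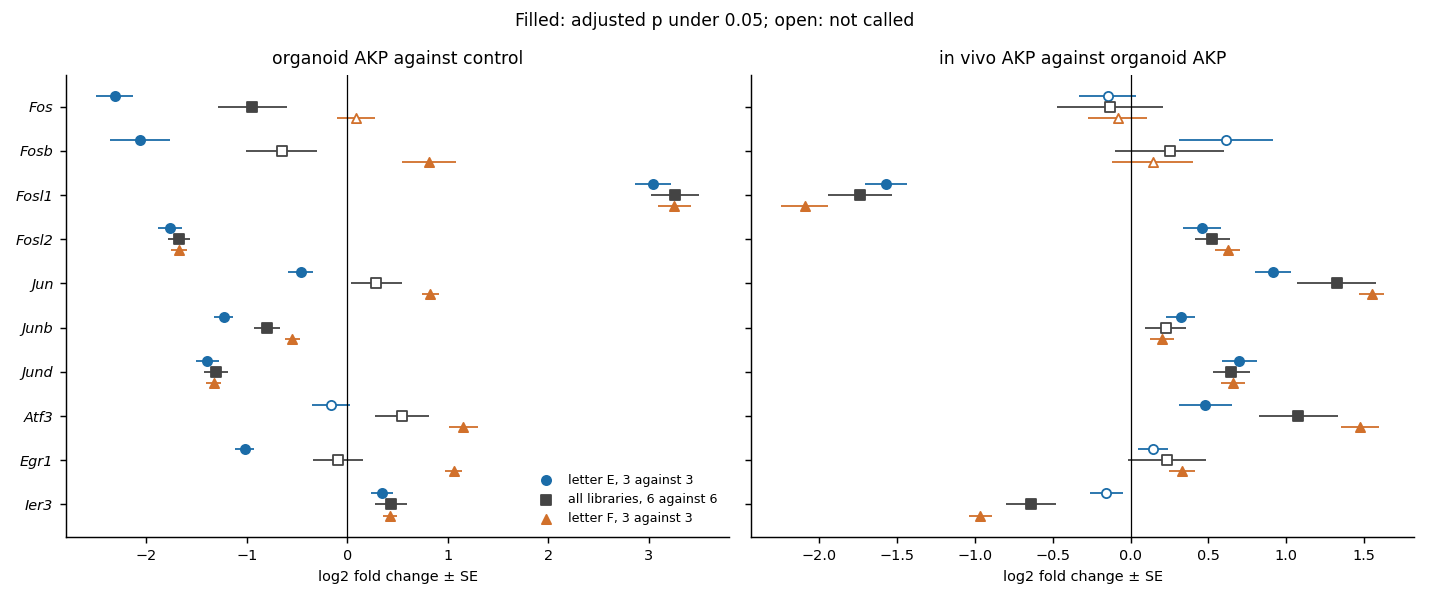
Log2 fold changes (x axis, bars ± SE) of the 10 members in organoid AKP against control and in in vivo AKP against organoid AKP, fitted over all libraries (squares), letter E alone (circles) and letter F alone (triangles); filled symbols passed an adjusted p under 0.05. Fosl1, Fosl2 and Jund lie close together across the fits, while Fos, Fosb, Jun and Egr1 spread to both sides of 0 or far apart in the left panel.

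The letter was tested within each line that has both. In control, 2 members were higher with letter F (Jund, Ier3) and 6 lower (Fos, Fosb, Fosl1, Jun, Atf3, Egr1), against 13.6% and 8.51% of all genes. In organoid AKP, 7 were higher (Fos, Fosb, Jun, Junb, Jund, Egr1, Ier3) and 1 lower (Fosl1), against 15% and 15.4%. In in vivo AKP, 8 were higher (the same genes without Ier3, with Fosl2 and Atf3) and 1 lower (Fosl1), against 25.5% and 21.6%. Fosl1 was called lower with F in all 3 lines, with log2 ratios of F to E of -0.86 ± 0.25 in control, -0.62 ± 0.12 in organoid AKP and -1.14 ± 0.16 in in vivo AKP. Jund was called higher with F in all 3 (0.38 ± 0.09, 0.47 ± 0.10 and 0.43 ± 0.09). Fos went from -0.93 ± 0.19 in control to 1.497 ± 0.20 in organoid AKP and 1.57 ± 0.20 in in vivo AKP. Egr1 went from -1.53 ± 0.10 to 0.58 ± 0.10 and 0.77 ± 0.10. In the test of the difference itself, the change from control to organoid AKP differed between letters for 6 members (Fos, Fosb, Jun, Junb, Atf3, Egr1), each with a higher value in F, where 5.12% of all genes did so. The change from organoid to in vivo AKP differed for Jun and Atf3 (higher in F) and Ier3 (lower in F), against 10.5% and 10.3% of all genes.

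**Figure D3:**
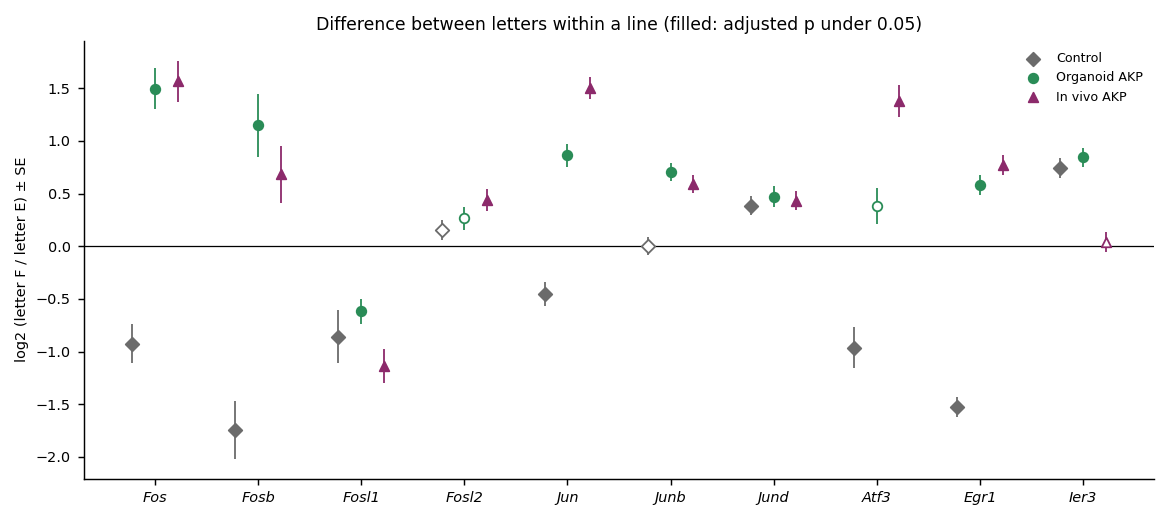
Log2 ratio of letter F to letter E (y axis, bars ± SE) for each member in control (diamonds), organoid AKP (circles) and in vivo AKP (triangles), 3 libraries against 3; filled symbols passed an adjusted p under 0.05. For Fos, Fosb, Jun, Atf3 and Egr1 the control symbol lies below 0 and both AKP symbols above it. The organoid AKP symbol of Atf3 is open.

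Genes of the same class outside the members also differed between letters. Of 32 other immediate early genes, 29 were tested. In control, letter F was called above letter E for 6 of them and below it for 12. The same counts were 12 and 4 in organoid AKP and 15 and 4 in in vivo AKP, with medians of -0.16, 0.40 and 0.44 on the log2 scale, beside the shares of all genes given above for each line. Egr2, a relative of Egr1, held 5.95 to 8.82 CPM in control with letter E and 0.313 to 0.882 CPM with letter F. The neuronal activity gene Arc fell by 2.43 and Klf4, a zinc finger factor of differentiated epithelium, fell by 0.71 in control with F on the log2 scale. In organoid AKP, Ier5 (-0.999) and the survival gene Mcl1 (-0.54) were lower and the small GTPase gene Rhob (1.08) higher with F. Among in vivo AKP libraries, the RNA decay factor Zfp36l1 (1.13), Ier5l (1.73) and the bZIP gene Maff (1.41) were higher with F. Of the heat shock and dissociation stress genes, letter F was called above E for 1 of 14 and below it for 0 in control, against 13.6% and 8.51% of all genes. In organoid AKP these counts were 5 and 5, against 15% and 15.4%. In in vivo AKP they were 5 and 5, against 25.5% and 21.6%. Their summed level was 4969 to 5573 CPM in control and 6282 to 10577 CPM in the AKP libraries. All cells were collected with a dissociation enzyme, and the part of collection in the members' levels was not tested.

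The mini-colon lines were set against organoid AKP of the same letter. With letter E, Fosl1 and Junb were called higher in #i, #ii and #iii, by 0.55 ± 0.12, 0.37 ± 0.12 and 0.47 ± 0.12 for Fosl1 and by 0.57 ± 0.09, 0.51 ± 0.09 and 0.50 ± 0.09 for Junb on the log2 scale. The 3 lines share the organoid AKP libraries in these comparisons. Line #i also had a higher Ier3 (0.42 ± 0.11), 3 members in all against a background of 3.67% higher and 4.03% lower. Line #ii had a higher Atf3 (0.55 ± 0.17) and a lower Fosl2 (-0.35 ± 0.13) and Jund (-0.33 ± 0.12), 3 higher and 2 lower against 11.5% and 11.3%. Line #iii had a higher Egr1 (0.51 ± 0.10) and Ier3 (0.38 ± 0.11), 4 higher against 7.38% and 8.19%. Fos did not pass the test in any of the 3.

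With letter F, line #iv differed from organoid AKP only in Jund (log2 fold change 0.27 ± 0.08, adjusted p = 0.0127), 1 member higher against a background of 6.65% higher and 6.03% lower. Fosl1 in #iv lay below all organoid AKP libraries of its letter but missed the threshold (log2 fold change -0.36 ± 0.13, adjusted p = 0.0551). Line #v had a higher Jun (0.45 ± 0.08), Jund (0.33 ± 0.07) and Atf3 (0.37 ± 0.13) and a lower Fosl1 (-0.56 ± 0.12), Junb (-0.43 ± 0.08) and Ier3 (-0.33 ± 0.07), against 14.1% and 13.1% of all genes. Against the same organoid AKP libraries, in vivo AKP of letter F gave 1.55 ± 0.08 for Jun, 0.66 ± 0.07 for Jund, 1.47 ± 0.12 for Atf3, -2.09 ± 0.15 for Fosl1, 0.20 ± 0.08 for Junb and -0.96 ± 0.07 for Ier3. The 2 comparisons share those libraries.

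Against all 6 organoid AKP libraries of both letters, fewer members were called. Fosl1 was called higher in #i (0.84 ± 0.23; background 3.1% higher, 4.05% lower), in #ii (0.65 ± 0.23; 11.9% and 12.7%) and in #iii (0.78 ± 0.23; 7.45% and 8.79%), and lower in #v (-0.91 ± 0.25; 5.11% and 5.48%). Fosl2 and Jund were also called lower in #ii, and Jund higher in #v and in #iv (adjusted p = 0.04997; background 2.55% and 2.35%). Leaving out any single mini-colon library of #i, #ii, #iv or #v ended the Fosl1 call in #i, #ii and #v and the Jund call in #iv, as did leaving out replicate 1 or 3 of #iii for its Fosl1 call. Leaving out organoid AKP replicate 4, 5 or 6 ended the Fosl1 calls in #i and #ii, and leaving out replicate 1, 2 or 3 ended the Jund call in #iv. Dropping #v replicate 2 ended its Jund call, and dropping #ii replicate 1 or 3 ended the Fosl2 call in #ii.

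**Figure D4:**
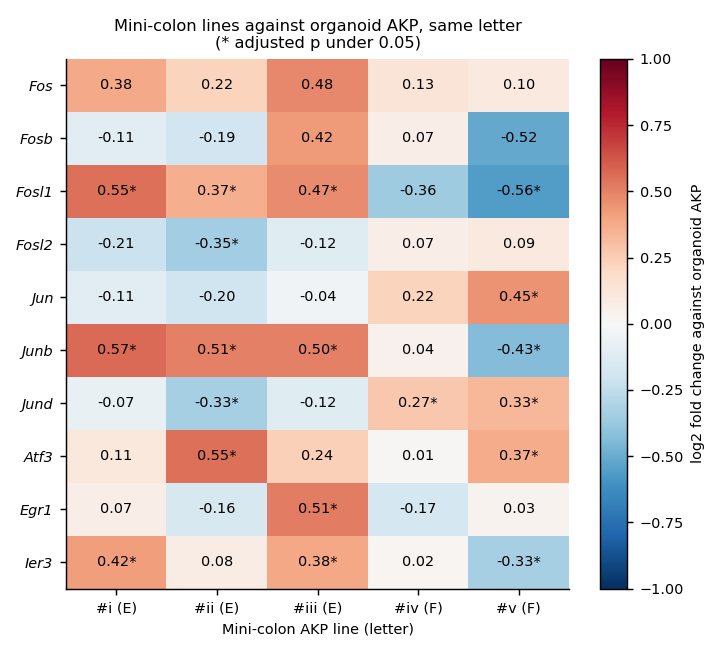
Log2 fold change of each member (rows) in each mini-colon AKP line (columns) against organoid AKP libraries of the same letter, coloured from -1 to 1; an asterisk marks an adjusted p under 0.05. Fosl1 and Junb are red in the 3 letter E lines and blue in line #v.

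Line #v and line #i, described as crypt- and lumen-enriched, share no letter, so that line and letter cannot be told apart between them. In #v, Fosl2 (0.57 ± 0.16), Jun (1.43 ± 0.37) and Jund (0.88 ± 0.17) were called higher and Fosl1 (-1.75 ± 0.28) lower, against 12.5% and 11.9% of all genes. The spread in this fit is shared by all lines, so it holds the letter differences of the lines with both letters. With only the lines compared, 8 members were called, and the share of all genes was not computed for that fit. An additive letter term assumes 1 letter shift for all lines. The tests above do not bear this out for 6 members between control and organoid AKP. Nor do they for Ier3 between organoid and in vivo AKP. Under the additive term, Fosl1 remained lower (log2 fold change -0.91, adjusted p = 4.73e-04) and Jund higher (0.45, adjusted p = 0.0145). Jun and Fosl2 were no longer called, and Junb was called lower (-0.73). In the F test over all 5 mini-colon lines, 5 members differed (Fos, Fosl1, Fosl2, Jun, Jund), against 46.7% of all genes. This count was 10 with only the lines compared and 3 with the additive letter term, with no share of all genes computed for either. Among the 3 letter E lines, Egr1 (adjusted p = 1.35e-06) and Ier3 (adjusted p = 0.0203) differed instead, against 24.8%. Egr1 was higher in #iii, at 426, 357 and 401 CPM, than in #i (339, 263 and 255 CPM) and #ii (247, 248 and 236 CPM). Between the letter F lines, #v had a higher Jun (log2 fold change 0.23 ± 0.08, adjusted p = 0.0438) and a lower Junb (-0.48 ± 0.08) and Ier3 (-0.35 ± 0.07) than #iv, against 9.14% higher and 9.3% lower.

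The makeup of each subunit family can be read as shares of its tags, a description that rests on 1 tag site per transcript and not on length. Fosl1 made up 0.599% to 1.01% of the Fos, Fosb, Fosl1 and Fosl2 tags in control with letter E and 0.480% to 1.01% with letter F. In organoid AKP it made up 20.9% to 27.0% and 7.80% to 9.71%, and in in vivo AKP 7.84% to 9.80% and 1.70% to 2.58%. In line #i its share was 25.1% to 33.1% and in line #v 4.78% to 6.27%. The family as a whole fell from 900.4 to 960.4 CPM in control to 268 to 311 CPM in organoid AKP with letter E, so the share rose with a shrinking sum there. With letter F the sums were 569.7 to 619.7 and 486 to 566 CPM. Among the JUN genes, Jun held 16.96% to 20.1% and 12.5% to 14.0% of tags in control, 26.2% to 31.3% and 30.5% to 34.5% in organoid AKP and 34.8% to 37.2% and 51.6% to 52.6% in in vivo AKP. Junb had the largest JUN share in every control and organoid AKP library and in lines #i to #iv, and Jun in line #v and in in vivo AKP of letter F. In in vivo AKP of letter E, Junb held 37.1% to 37.6%, close to Jun.

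**Figure D5:**
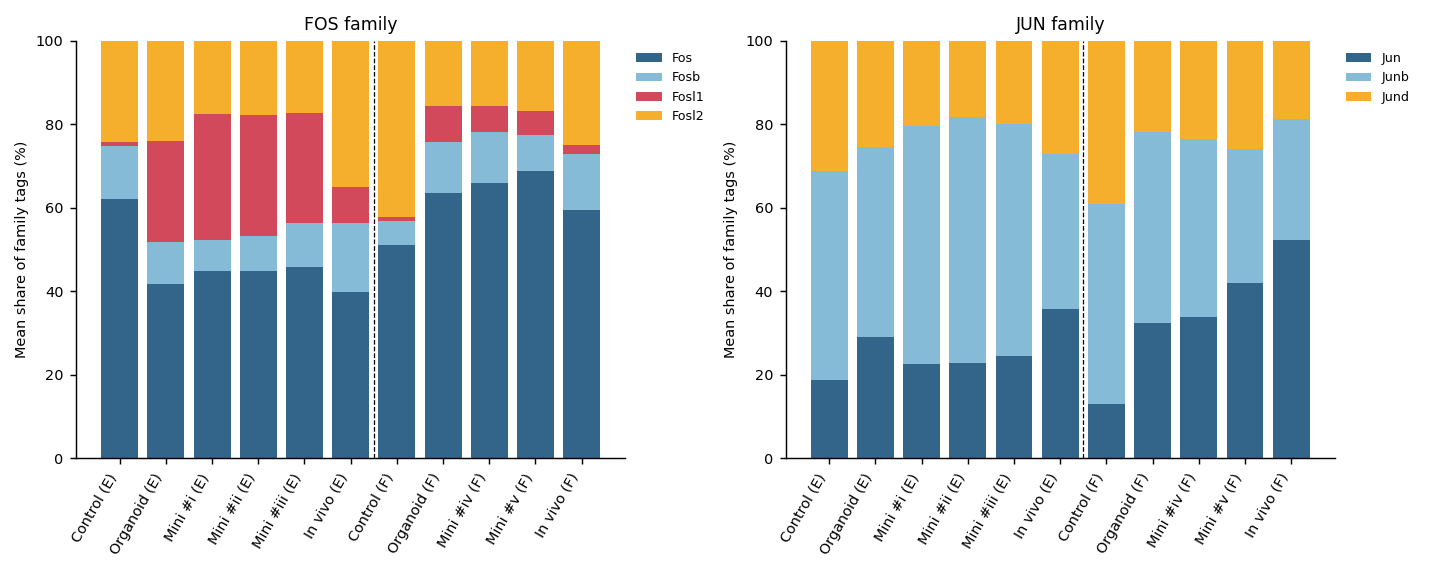
Stacked bars show the mean share (%) of each gene among the tags of its family, FOS on the left and JUN on the right, for 3 libraries per bar; the dashed line separates letter E from letter F. The Fosl1 segment is thin in both control bars and widest in the letter E organoid and mini-colon AKP lines.

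Of 27 genes listed as AP-1 targets, 23 were tested, and in organoid AKP against control 8 were higher and 12 lower (median -0.57), where 37.3% of all genes were higher and 33.6% lower (median 0.06). The called targets with the smallest p were Phlda1, an ERK-responsive gene, at 1.89, the integrin subunit Itga2 at -5.07 and the laminin chain Lamb3 at -2.16 on the log2 scale. In in vivo AKP against organoid AKP, 4 targets were higher and 9 lower (median -0.29), against 17.4% and 17% of all genes. Mmp14, a membrane matrix metalloproteinase, held 131 to 198 CPM in in vivo AKP and at most 1.30 CPM in any other library. Ereg, the EGF receptor ligand epiregulin, held 22.5 to 47.0 CPM in organoid AKP and 0 to 0.400 CPM in in vivo AKP, with 0 to 2 counts per library there. Plau, the urokinase gene, fell by 2.30 on the log2 scale.

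Of the other immediate early genes, 8 were higher and 13 lower in organoid AKP than in control (median -0.25), against 37.3% and 33.6% of all genes. Btg2, which is also a p53 target, held 196 to 234 CPM in control, 4.58 to 9.79 CPM in organoid AKP and 23.0 to 57.2 CPM in in vivo AKP. Its fold change was -4.91 in organoid AKP against control and 2.46 in in vivo AKP against organoid AKP on the log2 scale. The kinase gene Sgk1 (-1.36) and Ier5 (-2.004) were lower in organoid AKP than in control. In in vivo AKP against organoid AKP, 7 were higher and 6 lower (median 0.17), against 17.4% and 17% of all genes. Ccn2, a matricellular YAP target, held 10.9 to 31.1 CPM in in vivo AKP and 156 to 254 CPM in organoid AKP.

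The genes whose mean log2 level over the 8 lines ran most like that of a member were sought among 10724 genes, as a description over 8 points that share letters and libraries. For Fosl1 these were Slc6a9 (Pearson r = 0.995), a glycine transporter gene, the non-coding RNA Snhg15 (0.993) and the kinase gene Grk6 (0.991). For Fos the closest was Ptgfrn (0.991), for Jun Rassf4 (0.980), for Atf3 Rbms3 (0.986), for Egr1 Taok1 (0.977) and for Ier3 Samd12 (0.965). For Fosl2 it was Nos1ap (0.992), for Jund Pafah1b3 (0.987), for Junb Crbn (0.977) and for Fosb Phc3 (0.976). Some of these genes were under 1 CPM in their lowest line. Line means ran from 0.252 to 5.76 CPM for Nos1ap and from 0.308 to 8.83 CPM for Rassf4. Rbms3 ran from 0.614 CPM in control to 105 CPM in in vivo AKP.

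Of the members, 4 overlap another counted gene on the opposite strand. Each gene has its own counts, but no strand setting is given, so how reads in the overlap were assigned is not known. Ccdc85b beside Fosl1 held 1.46 to 7.64 CPM and did not pass the test between organoid AKP and control (adjusted p = 0.735). Prdx2 beside Junb held 190.2 to 303 CPM and did not pass it either (adjusted p = 0.953). Between in vivo and organoid AKP, Prdx2 was higher in the former by 0.24 on the log2 scale (adjusted p = 0.0157) and Junos by 1.25 (adjusted p = 0.0408). Junos beside Jun stayed at or under 4.36 CPM and Gm11175 beside Jund at or under 0.379 CPM.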

How the data were processed

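The authors deposited 1 table of raw counts per gene for each of 33 QuantSeq libraries, made with STAR on GRCm39, per the study's methods. The annotation, the counting tool and its strand setting are not given in the sources used here. The study itself used R 4.1.2, TMM scaling in edgeR and limma-voom. Here, counts were tested with edgeR 4.0.16 in R 4.3.3 (quasi-likelihood test, robust, TMM), with 1 coefficient per line over all 33 libraries, on the 13606 genes that reached 1 CPM in 3 or more libraries. All lines shared 1 estimate of the spread per gene, which held the letter differences of the lines with both letters. P-values were Benjamini-Hochberg adjusted over all genes tested and called under 0.05. Letters were tested in a model with a coefficient for each line and letter, and also by fitting each letter alone. The 611 identifiers without a symbol in the annotation held 6.85% of all counts, 6.77% in 1 of them, and stayed in the fits under their identifiers. Levels are TMM-scaled CPM.

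The 10 members and the gene lists were chosen with earlier results of these data known. The text names all members, up to 3 called genes of smallest p per list and comparison, and the closest genes by Pearson r over 8 line means. Alternatives were RLE scaling, no filter, only the lines compared, a replicate block, the letter as a term, each letter alone, limma-voom (limma 3.58.1), DESeq2 1.42.0 and leaving out each library. For the tests between letters, limma-voom and RLE scaling were added after the data were seen. A gene and an allele that these rules would name are not reported here. The scripts were tested on simulated data. Promoters were read from GRCm39 with pysam 0.24.0, leaving out chromosome 18. Replicate pairs differed by more than sampling noise, with a chi-square per degree of freedom of 1.70 to 50.0 over 60 pairs.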

Additional observations from a re-analysis of the deposited data

Results flagged for a closer look

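The change from control to organoid AKP differed between libraries of letter F and letter E for 6 members in the edgeR test of the difference, given here as F minus E on the log2 scale. It was 2.42 ± 0.27 for Fos (adjusted p = 2.18e-06), 2.89 ± 0.40 for Fosb (adjusted p = 3.22e-05) and 2.11 ± 0.14 for Egr1 (adjusted p = 2.51e-16). It was 1.31 ± 0.16 for Jun, 1.34 ± 0.26 for Atf3 and 0.71 ± 0.12 for Junb. The change from organoid to in vivo AKP differed by 0.64 ± 0.15 for Jun, 0.997 ± 0.23 for Atf3 and -0.80 ± 0.13 for Ier3. What the letter stands for is not given in the sources used here.

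In organoid AKP, the lowest of the 6 libraries for Fosl2 lay apart from the others, with a gap of 0.716 of the group's range. It was the 1 value past Dixon's critical value among 30 groups tested, and chance flags about 1 in 20 groups of like libraries. Each group here mixes both letters, so that rate need not apply.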

How the results depend on the processing

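The numbers of members called in organoid AKP against control and in in vivo AKP against organoid AKP stayed within 1.5 times the main count under every alternative run, at 5 to 9 and 6 to 8. Leaving out 1 library each gave 5 to 7 and 6 to 6. The call of Ier3 in organoid AKP against control was lost without organoid AKP replicate 5 or 6. Counting a sign change where the value was called in either fit, each letter alone reversed Fos (0.084), Fosb (0.81) and Egr1 (1.06) with letter F and Jun (-0.46) with letter E in that comparison. Atf3, called in neither, changed sign with letter E (-0.16). By the same count, a letter alone reversed Ier3 in #i (0.42), #iii (0.38) and #v (-0.33) against organoid AKP. The mini-colon counts were less steady. Each letter alone moved the members called from 1 to 3 in #i, 3 to 5 in #ii, 1 to 4 in #iii and 2 to 6 in #v. In #iv, the 1 call (Jund) became 0 without the filter, with only the lines compared, with the letter as an additive term and in limma-voom. With only the lines compared, #v against #i went from 4 to 8 members and the F test over 5 lines from 5 to 10. The F test fell to 3 with the letter as an additive term, 2 with letter E alone and 3 with letter F alone. Leaving out 1 library gave 0 to 2 members in #i, 1 to 3 in #ii, 0 to 2 in #iii, 0 to 1 in #iv, 0 to 2 in #v, 3 to 4 in #v against #i and 4 to 6 in the F test. The call of Fosl2 in #v against #i was lost without #i replicate 2. No share of all genes was computed for the alternatives other than each letter alone, so those counts have no background beside them. The causes were not tested.

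Replicate numbers were not shown to pair the samples, since same-numbered libraries of different lines had correlations of -0.0659 to 0.375 in their deviations and 8 of 30 correlated best with their own number. With the replicate block, the members called were 6 in organoid AKP against control, 7 in in vivo AKP against organoid AKP, 0 in #i, 2 in #ii, 0 in #iii, 6 in #iv, 4 in #v, 4 in #v against #i and 7 in the F test. The share of all genes called was not computed for this fit either. Of 1500 recomputed values of single members, 1360 kept their direction and call, 45 lost the call and 44 gained it. The sign changed in 51, of which 7 were called in either fit and 44 in neither. Depth limits Fosl1 most, with as few as 15 counts in a control library.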

Other observations

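In organoid AKP against control 37.3% of all genes were called higher and 33.6% lower, and in in vivo AKP against organoid AKP 17.4% and 17%. Of 23 listed kinases and serum response factors, all tested, 7 were higher and 8 lower in organoid AKP than in control. Those with the smallest p were the ribosomal S6 kinase genes Rps6ka3 (-1.76) and Rps6ka1 (-1.66) and the ERK1 gene Mapk3 (-2.20), all lower on the log2 scale. In in vivo AKP against organoid AKP, 4 were higher and 2 lower, with Elk3, an SRF cofactor, at -1.21, Rps6ka1 at 0.75 and Map3k1 at 0.63.

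Of 22 other bZIP genes, 20 were tested, and 10 were higher and 5 lower in organoid AKP than in control, against 37.3% and 33.6% of all genes. Ddit3, which encodes the stress factor CHOP, rose by 1.45 and Maf by 1.83, whereas Nfe2l2, the oxidative stress factor NRF2, fell by 1.35 on the log2 scale. In in vivo AKP against organoid AKP, 2 were higher and 6 lower, against 17.4% and 17% of all genes, with Ddit3 at 0.55 and Cebpb at -0.94. Of the 14 heat shock and dissociation stress genes, 9 were higher and 4 lower in organoid AKP than in control, against the same 37.3% and 33.6%. Among them were the chaperone genes Hspd1 (2.30), Hsp90aa1 (2.25) and Hspa1b (-2.15).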
